A study of Solanum lycopersicum and Solanum pimpinellifolium with 30 samples.

Results

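Landrace 572 is 1 of 9 local tomato varieties (Solanum lycopersicum) whose ripe red fruit was profiled, and it was set against the other 8, which are 549, 557, 560, 571, 3806, 3815, 3836 and 3842. Its members were the 3 arrays titled as 572 fruit, of 30 arrays in all, and the comparison group was the equally weighted mean of the other 8 landraces with 3 arrays each (24 arrays). The 3 arrays of LA1589, an accession of the wild relative Solanum pimpinellifolium, were left out of the comparison. Per the labels, all accessions were grown in 1 field trial with randomized plots, fruit was taken at the mature red stage, and each array was a biological replicate. The labels describe no treatment or transgene in any group, and the tissue was pericarp from which the outer skin, the locule tissue and the seeds had been taken away.

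Tomato fruit ripens under the control of ethylene, which is made from S-adenosylmethionine by ACC synthase and then ACC oxidase, and of transcription factors such as the MADS-box proteins. During ripening the pericarp loses chlorophyll, gathers lycopene and other carotenoids, loosens its cell walls and makes aroma volatiles from fatty acids, amino acids and carotenoids. Lipoxygenases begin the fatty acid route, alcohol dehydrogenase turns the aldehydes into alcohols, and alcohol acyltransferase joins alcohols to acyl groups to form esters.

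Values are log2 signals of probe sets (groups of short probes for 1 transcript) after quantile normalisation between arrays. The sources used here do not state the log base, which was taken as 2. Background was the percentile 95 of the probe sets for foreign reporter sequences on each array. In 572 between 54.2% and 62.0% of probe sets lay above it, and in the other landraces between 40.2% and 78.3%. The mean of the spiked bacterial hybridisation controls was 10.28 ± 0.21 (SD, n = 3) in 572, second to 10.37 in 557, and ran down to 8.29 in 571. The arrays of 572 correlated with each other at 0.961 to 0.971 over the probe sets, and each was nearest to another array of 572. Their median correlation with the arrays of another landrace ran from 0.924 for 560 to 0.951 for 3836. In pericarp, a mixture of cell types, fewer cells of a type and less RNA per cell cannot be told apart.

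**Figure D1:**
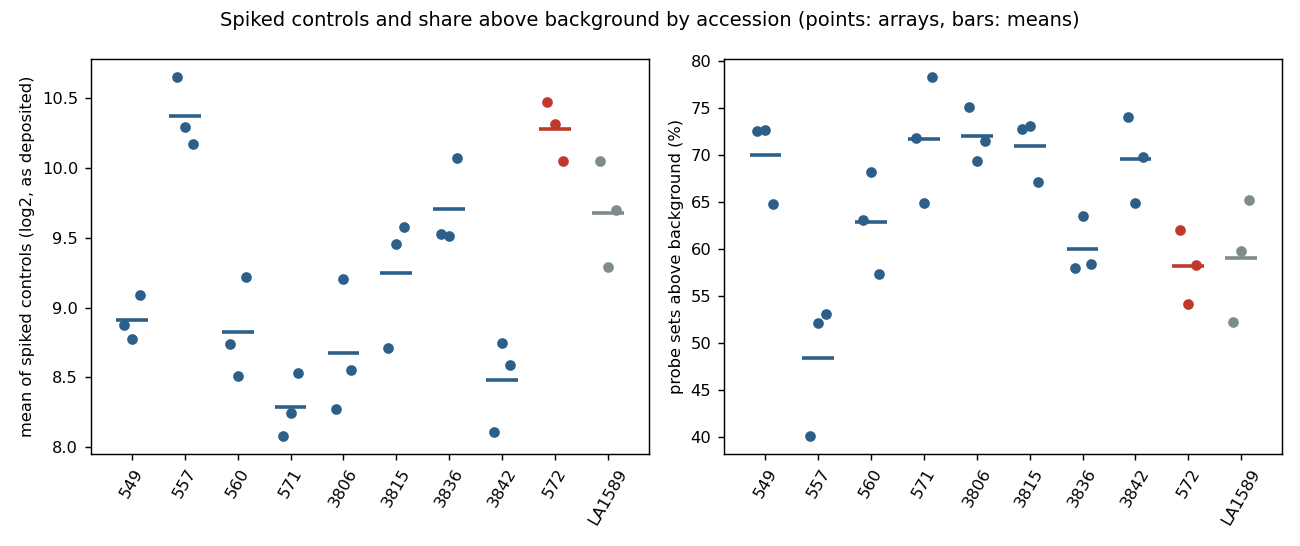
The mean of the spiked controls (left, as deposited and taken as log2) and the share of probe sets above background (right, in percent) are plotted for each array by accession. Bars give the mean of 3 arrays. The 572 arrays lie between 10.05 and 10.47 for the spiked controls, overlapping with 557, with 1 array of 3836 and with 1 array of LA1589. For the share above background they lie between 54.2% and 62.0%.

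In the comparison with the mean of the other 8 landraces, 1402 of 10038 probe sets (14.0%) passed an adjusted p of 0.05 by limma, 737 higher in 572 (7.34%) and 665 lower (6.62%). Differences of at least 2-fold were found in 517 of them (5.15%), 244 higher and 273 lower. For 607 of the 1402, all 3 arrays of 572 lay outside the means of all 8 landraces, while for 270 the mean of 572 lay inside their range. The split of directions depended on the scaling, with 52.6% of calls higher in 572 after quantile normalisation, 42.0% with the values as deposited and 79.3% with median centring. Median centring moved the median difference of all probe sets to 0.21, against 0.00 after quantile normalisation.

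Fewer probe sets set 572 apart from every other landrace. Compared with each of the 8 in turn, 93 probe sets (0.926%) differed from all of them in 1 direction, 50 higher in 572 (0.498%) and 43 lower (0.428%). That split was 36 and 51 with the values as deposited, 65 and 34 with median centring, and 6 and 10 with the spiked controls as a covariate. The 3 arrays of 572 lay above all 24 others in 92 probe sets (0.917%) and below all of them in 88 (0.877%), together 180 (1.79%), of which 173 also passed the comparison with the mean. Among 660 genes with a descriptive symbol, 100 passed (15.2%), 41 higher (6.21%) and 59 lower (8.94%). In 12 of these genes 572 differed from all 8 landraces. AAT, vis1, AN35, TH1, THOX2, ca1, TAGL1 and DIG3 were lower, and PGH1, AAP1, EXP5 and MAF1 were higher. The same comparison for each of the other landraces shares arrays with this one. It gave 2347 probe sets for 557, 2270 for 560, 833 for 3815 and 578 for 3806. For 3836 it gave 381, for 549 151, for 571 75 and for 3842 16.

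**Figure D2:**
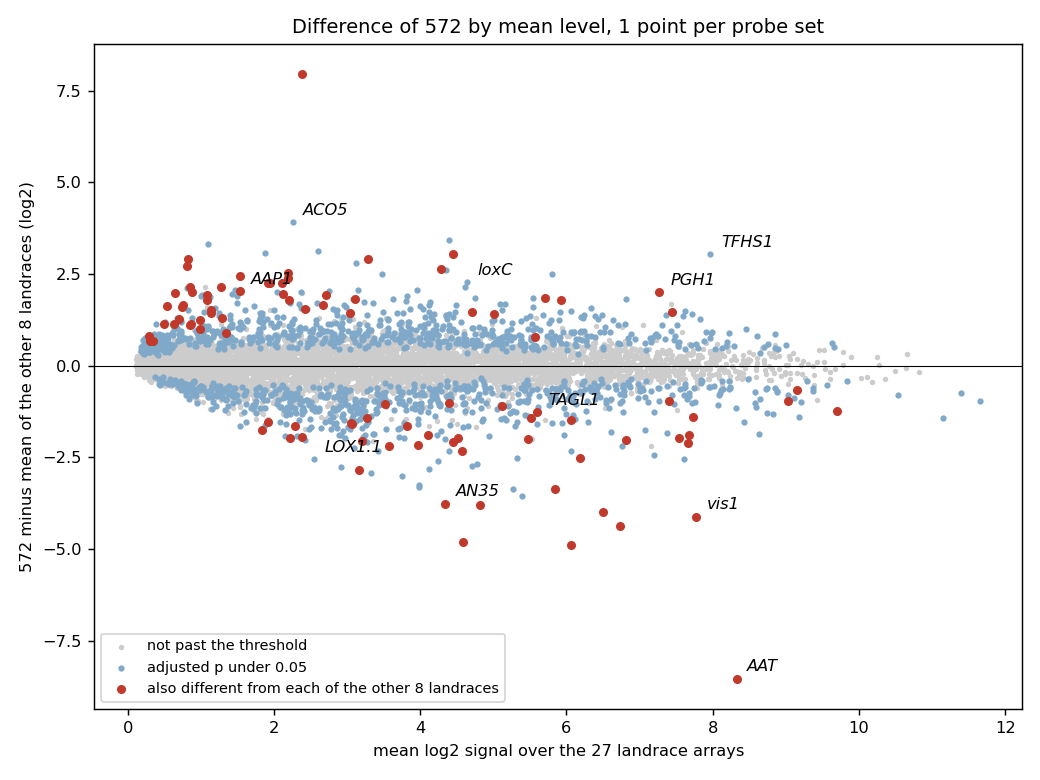
Each point is a probe set, with its mean log2 signal over the 27 landrace arrays on the horizontal axis and the difference of 572 from the mean of the other 8 landraces (log2) on the vertical axis. Red points are the 93 that differed from each of the 8 landraces, and AAT, at -8.53, is the lowest.

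Many calls depended on 2 choices that apply to all genes below. With 1 mean per landrace, so that the spread between landraces was the error, 44 probe sets passed (0.438%), and of 39 named genes past the threshold 7 kept the call (AAT, AN35, TH1, TAGL1, EXP5, AAP1 and sus2). The other 32 had adjusted p from 0.071 for vis1 to 0.741 for CAB4. With the spiked controls as a covariate 327 passed (3.26%), and 11 named genes kept the call (AAT, vis1, AN35, LOX1.1, AN34, TH1, DIG3, gtsatom, ER69, EXP5 and loxC). The others had adjusted p from 0.0619 for TAGL1 to 0.992 for CCD1B. Some of them kept nearly the same difference with the covariate, such as TomloxE (2.06, then 2.07) and XTH3 (-2.67, then -2.85). Others shrank, such as APX1 (1.33, then 0.22) and CCD1B (-0.66, then -0.01), and ACO4 and FRK2 changed sign. The controls were themselves higher in 572 than in most other landraces. Whether they account for the lost calls was not tested. AAT, AN35, TH1 and EXP5 passed under both choices.

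The lists below are read against the 14.0% of all probe sets that passed, 7.34% higher and 6.62% lower. Among named genes the largest difference was in the aroma list. AAT, the alcohol acyltransferase gene for aroma esters, had levels of 0.98, 0.45 and 0.80 in the 3 arrays of 572, and from 8.58 to 9.74 with a median of 9.30 in the 24 others. No array of 572 came near the others, and 2 of its 3 arrays lay at background. The means of the other 8 landraces ran only from 9.09 in 571 to 9.44 in 3836. AAT was therefore at least 304-fold lower in 572 (difference -8.53 ± 0.16, SE; adjusted p = 1.18e-20). It was measured with 1 probe set, so a lower level of the transcript and a sequence difference under the probes cannot be told apart. Other genes below were also measured with 1 probe set, among them vis1, AN35, TAGL1, ACO5, EXP5, PGH1 and AAP1. For these, too, a difference in transcript level and a sequence difference between landraces cannot be told apart.

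Of the 14 aroma genes measured, 5 passed (35.7%), 2 of them higher and 3 lower in 572. The list had a median difference of -0.31, against 0.00 over all probe sets tested. Lipoxygenase genes were among the calls in both directions. LOX1.1 had levels of 0.48, -0.16 and 0.53 in 572 and from 0.92 to 5.47 with a median of 2.80 in the others. All arrays of 572 lay at background and below all others, at least 3.67-fold lower (-2.54 ± 0.60, adjusted p = 0.00647). The gene loxC encodes the lipoxygenase that feeds the synthesis of short-chain aldehydes and alcohols of tomato flavour. Its levels were 6.83, 6.75 and 6.39 in 572 and from 2.29 to 5.71 with a median of 4.71 in the others, again without overlap (higher by 2.27 ± 0.44, adjusted p = 0.00131). TomloxE, a further lipoxygenase gene, had 5.42, 4.93 and 4.59 in 572 and at most 4.76 in the others, an overlap of 1 array of 572 (higher by 2.06 ± 0.38, adjusted p = 0.000787). Taken pairwise, loxC was higher than 4 of the 8 landraces, TomloxE than 5, and LOX1.1 lower than 2.

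Of the other aroma genes, only CCD1B passed. The alcohol dehydrogenase gene ADH2 had a difference of -0.16 (adjusted p = 0.555), with levels from 10.56 to 10.77 in 572, and the lipoxygenase gene LOXB had -0.45 (adjusted p = 0.18). CCD1B, a carotenoid cleavage dioxygenase that forms apocarotenoid volatiles, was lower by a small amount (-0.66 ± 0.21, adjusted p = 0.0373). Its call was lost without any one of the 3 arrays of 572 (adjusted p = 0.0589, 0.119 and 0.185), with median centring (0.0653) and without landrace 549, 571, 3806 or 3842 (0.0525 to 0.0711).

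**Figure D3:**
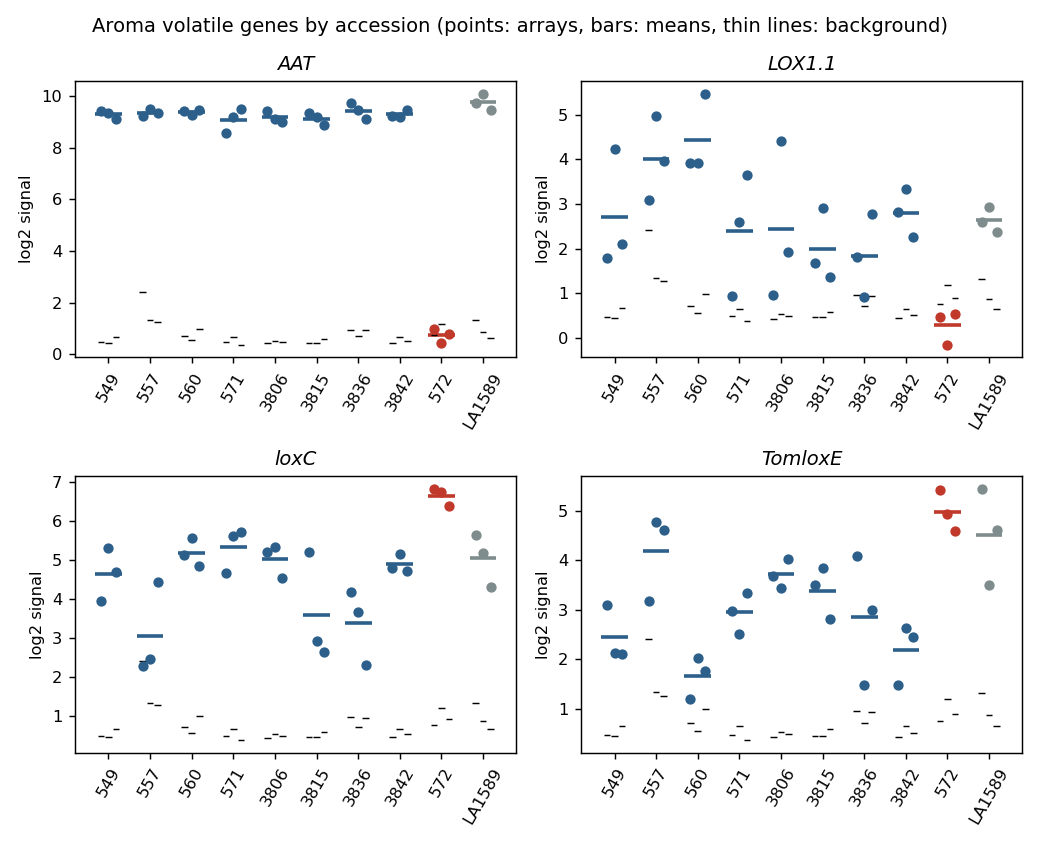
Log2 signals of AAT, LOX1.1, loxC and TomloxE are plotted for each array by accession, with bars for the mean of 3 arrays and thin lines for the background of each array. AAT lies from 8.58 to 9.74 in the other landraces and below 1 in 572, while loxC in 572 lies above all 24 arrays of the other landraces.

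Among the ethylene and ripening genes, the signal of ACO5 was higher in 572 and that of TAGL1 lower. ACO5, an ACC oxidase gene, had levels of 7.69, 3.97 and 5.54 in 572 and from -0.18 to 5.24 with a median of 1.18 in the others. The groups overlapped through arrays of 549, and the 572 arrays were spread widely. The difference was 3.91 ± 0.73 (adjusted p = 0.000817), 2.94 without replicate 1 of 572 and 4.79 without replicate 2. TAGL1, a MADS-box gene that promotes ripening and fleshy fruit growth, had 5.05, 4.07 and 4.31 in 572 and from 5.28 to 6.28 with a median of 5.71 in the others. Its groups did not overlap, and it was 2.41-fold lower (-1.27 ± 0.18, adjusted p = 4.62e-05).

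In this list of 45 genes 5 passed (11.1%), 3 higher and 2 lower, and the median difference was 0.02. ACO4, another ACC oxidase gene, was lower (1.54, 0.31 and 2.22 in 572 against a median of 2.98; -1.79 ± 0.50, adjusted p = 0.0191). It lost the call without replicate 1 or 2 of 572 (adjusted p = 0.0638 and 0.184), and its difference turned to 0.45 once the spiked controls entered as a covariate (adjusted p = 0.811). The transcription factor genes ERF2 (1.25) and EIL4 (0.94), named after their values were seen, were the other higher members, and each lost the call without 1 array of 572 (adjusted p up to 0.178 and 0.0848). ACS2, the ripening ACC synthase gene, had 4.37, 4.14 and 3.73 in 572, inside the range of the others from 1.30 to 8.09 (-0.95, adjusted p = 0.356). The ethylene-induced gene E8 had a difference of 0.39 (adjusted p = 0.634).

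Of 18 carotenoid genes 3 passed (16.7%, beside 14.0% of all probe sets), all of them lower in 572, and the list median was -0.22. None of the 3 passed with the spiked controls as a covariate or with 1 mean per landrace. PDS, phytoene desaturase, had 2.99, 3.51 and 2.86 in 572 and from 2.99 to 5.23 with a median of 4.30 in the others (2.01-fold lower, SE of the log2 difference 0.28, adjusted p = 0.0179). NCED1, which cleaves carotenoids on the way to abscisic acid, had 1.01, 2.99 and 0.63 in 572, of which replicate 2 lay above the median of the others at 2.75 (-1.22 ± 0.37, adjusted p = 0.0296). Both calls were lost without replicate 1 or 3 of 572 (adjusted p = 0.0959 and 0.108 for PDS, 0.206 and 0.27 for NCED1). Without replicate 2 of 572, NCED1 differed by -1.94. NCED1 also lost its call without landrace 557, 560 or 3842 (adjusted p = 0.0593, 0.0781 and 0.0737). The third gene was CCD1B, given above. Psy1, which commits carbon to carotenoids, did not pass (-0.39, adjusted p = 0.353), with levels of 8.32 to 8.70 in 572. It passed when landrace 560, where it was lowest at 5.36, was left out (-0.89, adjusted p = 0.0339).

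The cell wall list held calls in both directions. Of its 52 genes 11 passed (21.2%, beside 14.0% of all probe sets), 5 higher and 6 lower, and the median was -0.03. Above background lay 26 of the 52. EXP5, an expansin gene (expansins loosen walls without cutting their polymers), had 2.52, 1.33 and 2.63 in 572 and from 0.26 to 1.60 with a median of 0.45 in the others. Replicate 2 of 572 lay inside the range of the others, of which 15 of 24 arrays were at background, and EXP5 was at least 2.48-fold higher (adjusted p = 6.78e-05). XTH3 and XTH9, genes for xyloglucan endotransglucosylase/hydrolases that cut and rejoin wall xyloglucan, were lower. XTH3 had 1.21, 4.08 and 1.92 in 572 and a median of 4.83 in the others (-2.67 ± 0.65, adjusted p = 0.008). XTH9 had 0.37, 1.15 and 1.76 against a median of 3.07 and was at least 4.31-fold lower (adjusted p = 0.0359). Both overlapped with the others, which were lowest in 557 and highest in 3806. With the spiked controls as a covariate the difference of XTH9 shrank from -2.26 to -0.56 (adjusted p = 0.875), and array weights ended its call (0.11).

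Single arrays mattered for most of the cell wall genes. XTH3 differed by -2.07 without replicate 1 of 572 (adjusted p = 0.105), -3.51 without replicate 2 and -2.43 without replicate 3 (0.0561), and XTH9 lost its call without any one of them (adjusted p = 0.059 to 0.197) and without landrace 571 or 3842 (0.0721 and 0.0647). Members outside the naming rule, given after their values were seen, were the pectin methylesterase gene PME2.1 (-1.42), the beta-galactosidase genes TBG5 and TBG4 and XTH5 (-0.70) among the lower ones. TBG5 (-1.15) and TBG4 (-1.08) had 2 of the 3 arrays of 572 at background, so their fitted differences mix in background signal. Cel3 (0.72) was higher, while EXPA4, EXP12 and XTH16 passed as higher with the other landraces at background in 12, 23 and 21 of 24 arrays. For EXP12 and XTH16 2 of the 3 arrays of 572 were at background as well, and no difference is given for these 3 genes. Each of these 8 lost its call when 1 array of 572 was left out, with adjusted p of up to 0.0773 for PME2.1 and up to 0.703 for EXP12. The polygalacturonase gene PG2, which cuts pectin in ripening fruit, had 9.02, 8.72 and 8.07 in 572 and a median of 9.85 in the others and did not pass (-0.93, adjusted p = 0.224).

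**Figure D4:**
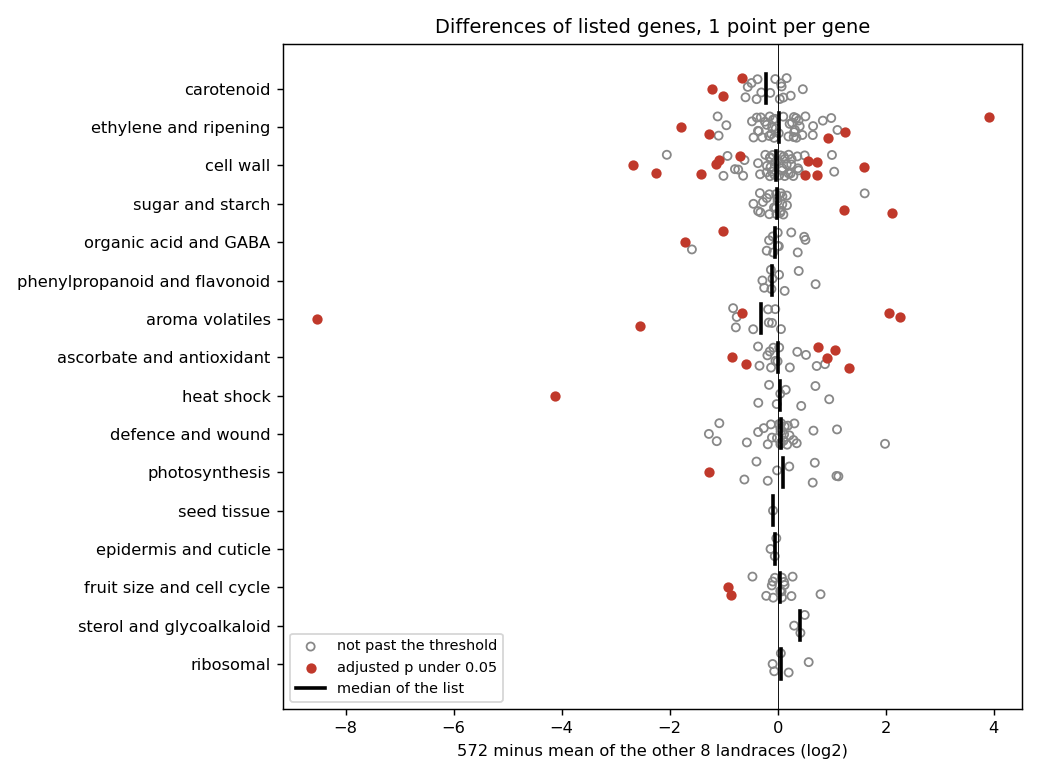
Each point is a gene of a list, placed by its difference between 572 and the mean of the other 8 landraces (log2). Filled points passed the adjusted p of 0.05, and the bars are list medians. The medians lie between -0.31 (aroma volatiles) and 0.42 (sterol and glycoalkaloid, 3 genes), and single genes such as AAT, vis1 and ACO5 lie far from them.

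In sugar metabolism 2 of 25 genes (8%) passed, both higher (median 0.00), and 16 of the 25 lay above background. FRK2, a fructokinase gene, had 6.92, 6.13 and 6.36 in 572 and from 4.27 to 7.12 with a median of 5.23 in the others (1.23 ± 0.30, adjusted p = 0.00733). It lost the call without replicate 1 of 572 (adjusted p = 0.0872), and its difference turned to -0.15 (adjusted p = 0.903) with the spiked controls as a covariate. The sucrose synthase gene sus2 had 4.15, -0.03 and 3.96 in 572 and a median of 0.47 in the others. Replicate 2 of 572 was at background while the other 2 lay above all 24 arrays (at least 3.65-fold higher, adjusted p = 0.00881). Without replicate 1 or 3 of 572 the call of sus2 was lost (adjusted p = 0.155 and 0.122), and without replicate 2 its difference was 3.48. The acid invertase gene AI did not pass (0.17, adjusted p = 0.851).

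Among 14 genes of organic acids and GABA, 2 passed (14.3%), both lower in 572 (median -0.04). Both lower genes encode GABA transaminases, which break down the GABA that green fruit stores. GABA-TP1 had 4.88, 4.54 and 4.28 in 572 and from 4.36 to 7.04 with a median of 5.41 in the others (2.01-fold lower, SE of the log2 difference 0.20, adjusted p = 0.00172). GABA-TP3 had 0.56, 2.06 and 1.43 against a median of 3.14 (-1.71 ± 0.37, adjusted p = 0.00305), and lost the call without replicate 1 of 572 (adjusted p = 0.0614). Both overlapped with the other landraces.

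Ascorbate and antioxidant genes passed in 6 of 20 cases (30%), 4 higher and 2 lower (median 0.01). None of the 6 passed with the spiked controls as a covariate or with 1 mean per landrace. With the covariate the differences of APX1, APX2 and GLDH were 0.22, 0.39 and 0.45. The ascorbate peroxidase gene APX1 had 5.82, 5.60 and 5.49 in 572 and from 3.67 to 5.58 with a median of 4.10 in the others, so that 1 array of 572 lay inside their range (1.33 ± 0.27, adjusted p = 0.00202). APX2, a second gene of this kind, was higher by 0.91 ± 0.21 (adjusted p = 0.00558), and its other probe set by 1.38 (adjusted p = 0.000468). The probe sets of both genes carry the same cluster number in their names, and cross-hybridisation between them was not tested. GLDH, which catalyses the last step of ascorbate synthesis, had 3.20, 2.94 and 2.71 in 572 against a median of 1.93 (1.06 ± 0.26, adjusted p = 0.0072). APX2 and GLDH lost their calls without replicate 1 of 572 (adjusted p = 0.0716 and 0.0663). PMM (at background in 2 of 3 arrays of 572 and 19 of 24 others), CCS (-0.85) and GPXle-1 (-0.59), named after their values were seen, did so without 1 array of 572 as well (adjusted p of up to 0.201, 0.0915 and 0.0537).

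Of 9 heat shock genes 1 passed (11.1%, median 0.05). This was vis1, a small heat shock protein gene of ripening fruit, with 3.53, 2.82 and 5.98 in 572 and from 6.51 to 10.20 with a median of 8.26 in the others. All arrays of 572 lay below all others, although replicate 3 came close, and vis1 was lower (-4.12 ± 0.47, adjusted p = 5.29e-06). Its difference was -3.47 without replicate 2 of 572 and -5.05 without replicate 3. HSP17-6, the small heat shock protein gene with levels of 8.80, 9.20 and 9.85 in 572, did not pass.

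Further genes higher in 572 by the naming rule were not given with a list above. PGH1, the enolase gene of glycolysis, had 9.61, 8.47 and 9.08 in 572 and from 5.50 to 8.07 with a median of 7.21 in the others. It did not overlap and was 4.02-fold higher (2.01 ± 0.28, adjusted p = 4.72e-05). The amino acid permease gene AAP1 had 3.47, 3.14 and 3.42 in 572 against a median of 1.19, and 1 array of 557, at 3.51, lay above it (2.03 ± 0.33, adjusted p = 0.000251). LHA1, a plasma membrane proton pump gene, had 5.50, 5.32 and 5.50 in 572 and at most 5.16 in the others (1.62 ± 0.31, adjusted p = 0.00107).

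TFHS1 had 10.96, 10.06 and 10.96 in 572, above all 24 others, which ran from 5.37 to 9.95 with a median of 7.81 (3.03 ± 0.44, adjusted p = 7.45e-05). ER69 had 7.72, 7.84 and 7.60 and was likewise above all others (1.38 ± 0.28, adjusted p = 0.00175). MAF1 had a small difference with tight arrays, 6.34, 6.21 and 6.27 in 572 against 5.02 to 5.97 (0.78 ± 0.13, adjusted p = 0.000354). Its other probe set was at background in all 3 arrays of 572. The gene gtsatom was higher on both of its probe sets (1.22 and 1.70), and on the brighter one it lost the call without replicate 2 of 572 (adjusted p = 0.115).

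**Figure D5:**
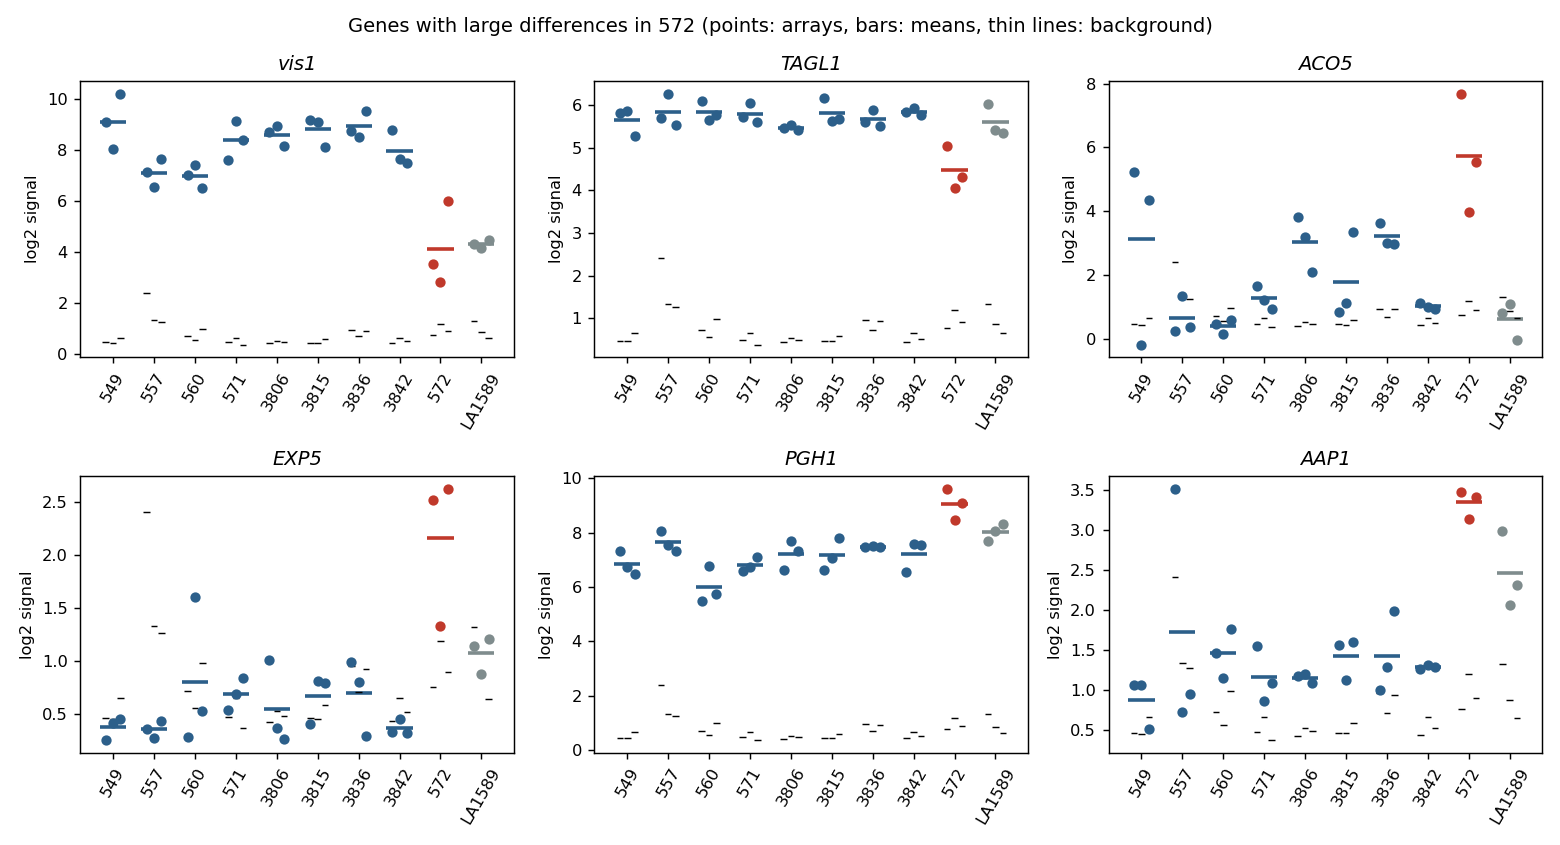
Log2 signals of vis1, TAGL1, ACO5, EXP5, PGH1 and AAP1 are plotted for each array by accession, with bars for the mean of 3 arrays and thin lines for the background of each array. In 572 vis1 and TAGL1 lie below and PGH1 above all 24 arrays of the other landraces, while ACO5, EXP5 and AAP1 overlap with single arrays of them.

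Among the lower genes, AN35 had levels between 0.69 and 1.31 in 572 and from 3.29 to 5.77 with a median of 4.67 in the others, 13.6-fold lower with no overlap (-3.76 ± 0.29, adjusted p = 1.59e-08). Background in the arrays of 572 ran from 0.76 to 1.19. Replicate 2 of 572 lay below its own background for AN35 and the other arrays of 572 just above theirs, so this fold mixes in background signal. TH1 had 1.56, 1.50 and 1.93 against 2.60 to 4.14 (-1.58 ± 0.24, adjusted p = 0.000102), and its other probe set was at background. THOX2 had 1.46, 1.80 and 1.73 against 2.45 to 4.13 (-1.57 ± 0.20, adjusted p = 2.03e-05). In ca1 and DIG3, too, the 572 arrays lay below all others (-1.39 and -0.97). AN34 was lower by -1.80 ± 0.28 (adjusted p = 0.000168) and differed from 7 of the 8 landraces, and Rab1A, a small GTPase gene of vesicle traffic, by -1.54 ± 0.23 (adjusted p = 9.96e-05) and from 6 of the 8. The phosphate transporter gene PT1 had 1.36, 1.21 and 1.13 in 572, inside the range of the others from 0.98 to 6.58 (-1.89 ± 0.53, adjusted p = 0.0199). The call of PT1 was lost without any one array of 572 (adjusted p = 0.0698 to 0.079).

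In the list on fruit size and cell cycle 2 of 17 genes passed (11.8%), both lower (median 0.05). The gene matriochka, whose product is a small zinc finger protein that restrains meristem activity, had 6.78, 6.51 and 7.20 in 572 against a median of 7.75 (-0.92 ± 0.23, adjusted p = 0.00865). It lost the call without replicate 1 or 2 of 572 (adjusted p = 0.0517 and 0.0824). The A-type cyclin gene CycA3 had 2.40, 1.47 and 2.46 against a median of 3.09 (-0.87 ± 0.28, adjusted p = 0.0433), and leaving out any one of 13 of the 24 other arrays ended its call (adjusted p = 0.0511 to 0.055), as did leaving out 1 array of 572 (up to 0.327) or any one of landraces 549, 571, 3806, 3815, 3836 and 3842 (0.0605 to 0.074).

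The other lists held few or no calls. Of 10 photosynthesis genes 1 was lower and 9 did not pass (median 0.10). It was CAB4, a chlorophyll a/b-binding protein gene, at 0.48, 1.18 and 1.58 in 572 against a median of 2.35, at least 2.24-fold lower (adjusted p = 0.00596, and 0.0931 without replicate 1 of 572). PSBP, a photosystem II gene, had 7.11, 7.73 and 7.28 in 572 and did not pass (1.09, adjusted p = 0.194), but it did with the spiked controls as a covariate (3.06, adjusted p = 0.0387). With that covariate PSBO (0.69, then 2.74, adjusted p = 0.0382) and the plastocyanin gene PETE (-0.61, then 2.87, adjusted p = 0.0483), named after their values were seen, passed as well. The list then held 3 higher and 0 lower genes, and CAB4 was not among them. In the lists for defence and wound (28 genes), phenylpropanoids (9), sterols (3) and ribosomal proteins (5), 0 genes passed. Only 11 of the 28 defence genes and 4 of the 9 phenylpropanoid genes lay above background. The remaining genes of these 2 lists had little signal in which a difference could show. With the covariate AOC of the defence list, named after its values were seen, passed as higher (2.49, adjusted p = 0.0221), and 1 defence and 1 ribosomal gene passed as higher without landrace 557. NP24-I, an osmotin-like defence gene, had a difference of 0.66 (adjusted p = 0.47), and hqt of chlorogenic acid synthesis 0.70 (adjusted p = 0.176, and 0.0438 without replicate 2 of 549). The seed marker TAS14 lay between 0.27 and 0.80 in 572, and the epidermis markers LE16 and ltpg1 between 0.09 and 0.76, all near background. Over the 16 lists 37 of 271 genes passed, 16 higher and 21 lower, a share of 13.7%. It stood beside 14.0% of all probe sets and 15.2% of genes with a descriptive symbol, and 184 of the 271 lay above background. Of the 37, 10 kept their call without each array of 572 in turn.

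Of the 1402 probe sets that passed, 1274 carried no gene name. The highest difference among them was that of Les.417.1.S1_at, with 9.30, 9.56 and 9.50 in 572 and a median of 1.36 in the others. It was 247-fold higher in 572 (7.95 ± 0.80), but replicate 3 of 3836 reached 8.39 while replicates 1 and 2 of that landrace had 1.48 and 1.38. The second was Les.5892.1.S1_at (3.42 ± 0.54, adjusted p = 0.000179), which overlapped with the others. The lowest were Les.4809.1.S1_at, with 2.71, 1.47 and 0.98 in 572 against 6.02 to 7.26 (29.6-fold lower), and Les.2294.2.A1_a_at, at background in all 3 arrays of 572 and at least 18.0-fold lower. For Les.4809.1.S1_at replicates 2 and 3 of 572 lay just above their backgrounds of 1.19 and 0.90, so its fold mixes in background signal. Les.5892.1.S1_at lost its call with 1 mean per landrace (adjusted p = 0.331) and with the spiked controls as a covariate (0.246). Les.2294.2.A1_a_at lost it with 1 mean per landrace (0.169). Les.417.1.S1_at and Les.4809.1.S1_at kept their calls under both choices.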

How the data were processed

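The authors deposited signals per probe set from 30 one-colour Affymetrix arrays, which were taken here as log2. The sources used here give neither their normalisation and background correction nor the log base. The spiked controls stepped by a median slope of 0.893 (0.494 to 1.11) on the log2 of their standard amounts. The deposited values were quantile normalised over 10209 probe sets and 30 arrays. The 171 control probe sets were left out of the tests.

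Tests used limma 3.58.1 in R 4.3.3 on the 27 landrace arrays (18 residual degrees of freedom), two-sided, with Benjamini-Hochberg adjustment over 10038 probe sets. Fold changes are bounds where the lower side was at background in at least 2 of 3 arrays of 572 or at least 12 of 24 others. The platform annotation of 2007 names 909 probe sets, of which 885 matched the gene table of assembly SLM_r2.1, used for names only. A gene was represented by its brightest probe set.

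Named genes were the 12 highest and 12 lowest past the threshold with all arrays of 572 beyond every landrace mean, up to 3 passing and 2 abundant non-passing members of each of 16 lists, 6 genes from an earlier analysis, and genes different from all 8 landraces. Members and lists were chosen with earlier results of these data known. Replicates were biological per the labels, and the number of arrays limits the precision.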

Additional observations from a re-analysis of the deposited data

How the results depend on the processing

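Of 39 named genes past the threshold, all kept their direction and call with the values as deposited, an intensity trend with a robust prior, quantile normalisation without LA1589 and removal of the 2510 dimmest probe sets. With median centring 1 lost its call, with LA1589 added 2 and with array weights 3. The count of 1402 probe sets (737 higher, 665 lower, 517 by 2-fold) became 44 (29, 15, 39) with 1 mean per landrace, of which 42 were shared, and 327 (202, 125, 296) with the spiked controls as a covariate, of which 213 were shared. With median centring it was 2714, with 2152 higher. Leaving out 1 array gave 847 (476 higher, 371 lower, without replicate 1 of 572) to 1723 probe sets (908 higher, 815 lower, without replicate 1 of 557). The 93 probe sets different from all 8 landraces became 16 with the covariate. Leaving out 1 landrace gave 1146 (without 571 or 3842) to 2000 probe sets (1032 higher, 968 lower, without 557). Of 37 list genes past the threshold, 5 stayed past it among 10 list genes that passed with the covariate, and 4 did with 1 mean per landrace. Without landrace 557, 48 list genes passed (19 higher, 29 lower). These alternatives for the lists were chosen after seeing the data. ACO4 turned to 0.45 and FRK2 to -0.15 with the covariate. The causes were not tested. Correlations of deviations between 572 and other arrays ran from -0.15 to 0.16 for the same replicate number (4 of 24 over 0.1). For different numbers they ran from -0.17 to 0.20 (11 of 48 over 0.1). Deviations from a mean of 3 arrays are tied to each other, so these values cannot tell whether replicate numbers mark a pairing. With a replicate block 1381 probe sets passed and 0 of the 39 calls were lost. Fitted differences of genes at background on the lower side mix in background signal, and their folds are bounds.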

Other observations

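The arrays of LA1589 entered the comparison only in the alternative with LA1589 added. They gave these levels for the 12 genes in which 572 differed from all 8 other landraces (mean ± SD, n = 3), set beside the mean of 572. AAT was 9.77 ± 0.32 in LA1589, close to the other landraces and far from 0.74 in 572. In vis1 LA1589 had 4.31 ± 0.15 beside 4.11 ± 1.66 in 572 and 6.97 to 9.10 in the other landrace means. In ca1 it had 6.41 ± 0.26 beside 6.50, in DIG3 6.46 ± 0.14 beside 6.54, in THOX2 1.34 ± 0.18 beside 1.66, and in MAF1 6.32 ± 0.08 beside 6.27. TAGL1 was 5.60 ± 0.37 in LA1589 and 4.48 in 572. AN35 was 3.19 ± 0.07, above every array of 572, which reached 1.31, and TH1 was 2.35 ± 0.34 beside 1.66. PGH1 was 8.02 ± 0.31 beside 9.06, AAP1 2.45 ± 0.48 beside 3.34 and EXP5 1.08 ± 0.17 beside 2.16. ACO5, which differed from 5 of the 8, was 0.63 ± 0.59 beside 5.73. Background in the arrays of LA1589 was 1.32, 0.87 and 0.65, so ACO5, EXP5 and THOX2 lay at or near background there.

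Of the unnamed probe sets, Les.417.1.S1_at had 8.39 ± 0.75 in LA1589 and 9.45 ± 0.14 in 572. Les.4809.1.S1_at had 0.70 ± 0.63 in LA1589, near background there, beside 1.72 ± 0.89 in 572. Les.2294.2.A1_a_at, near background in 572, had 5.78 ± 0.61 in LA1589. The differences between LA1589 and 572 were not tested.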
